A study of Homo sapiens with 2 samples.

Results

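The mitochondrial ribosomal protein genes were examined for NRF-1 occupancy at their promoters. They were taken as the protein-coding genes whose symbol is MRPL or MRPS followed by a number in GENCODE release 44 lifted to GRCh37 (hg19), which gave 78 of 19794 coding genes. By symbol, 49 belonged to the large subunit (MRPL) and 29 to the small subunit (MRPS). MRPS18A and MRPS30 carry small-subunit symbols although their proteins sit in the large subunit, and they were kept under their symbols and also counted the other way.

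NRF-1 chromatin immunoprecipitation was done in the human glioblastoma line U251, whose cells received either a control siRNA (siControl) or an siRNA against the transcriptional cofactor AATF (siAATF). Libraries were made by ChIPmentation, in which a transposase adds the sequencing adapters to the precipitated chromatin, with an NRF-1 antibody in both conditions. There was 1 peak list per condition, so no spread between replicates could be computed and no test between conditions was made. There were 18014 siControl and 18454 siAATF peaks, the number of reads behind them was unknown, and the lists hold no measure of how far AATF was lowered.

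Mitochondrial ribosomes translate the mRNAs of mitochondrial DNA, which encode membrane subunits of the oxidative phosphorylation complexes. Their ribosomal RNAs are encoded in the mitochondrion, whereas every protein of both subunits is encoded in the nucleus, made in the cytosol and imported. NRF-1 binds as a dimer to a GC-rich palindrome found at many promoters without a TATA box, among them promoters of nuclear genes for mitochondrial proteins.

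The core sites of NRF-1 are shown first because the members with the tallest peaks held them. The NRF-1 core was searched as the palindrome GCGCATGCGC with up to 1 mismatch, in the hg19 sequence of each gene's strongest promoter peak. A substitution is written as the core base, its position counted from 1 at the 5′ end of the core on the sense strand of the gene, and the base found. MRPL17, a protein of the exit tunnel rim, was the only member with the exact core. Its window, chr11:6704595-6704662 on the minus strand of hg19, lay upstream of the gene and touched no annotated exon, and it held the exact core followed by a copy with C10T (capitals mark both).
MRPL17: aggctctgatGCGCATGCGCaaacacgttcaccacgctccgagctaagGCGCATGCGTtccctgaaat

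For the other large-subunit members with the highest −log10 q and a core, 30 bases are shown with the core in capitals. They were MRPL14 at chr6:44095149-44095178 on the minus strand, in an exon of its 5′ UTR, MRPL45 at chr17:36452851-36452880 on the plus strand, MRPL54 at chr19:3762937-3762966 on the plus strand, in an intron, and MRPL24 at chr1:156711114-156711143 on the minus strand. MRPL14, MRPL45 and MRPL54 carried T6G and MRPL24 carried C2A.
MRPL14: tgggcctggcGCGCAGGCGCtaggaagagg
MRPL45: aaagcctcggGCGCAGGCGCagctcgcgtt
MRPL54: caggctgtatGCGCAGGCGCagtttgaggg
MRPL24: cctccacgcaGAGCATGCGCgggaatgtgc

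The 5 small-subunit members with a core had theirs upstream of the gene. The windows were MRPS18C at chr4:84377065-84377094 (C10T), MRPS12 at chr19:39421084-39421113 (T6G), MRPS6 at chr21:35445473-35445502 (T6C) and MRPS9 at chr2:105654477-105654506 (A5C), all on the plus strand, and MRPS33 at chr7:140714888-140714917 (T6G) on the minus strand.
MRPS18C: gaaaggtgctGCGCATGCGTattgaaaaac
MRPS12: cccccggccgGCGCAGGCGCactcacgatc
MRPS33: tagccttactGCGCAGGCGCcaggtacacc
MRPS6: ccgcaccgcaGCGCACGCGCactggcgggc
MRPS9: cgcgccattaGCGCCTGCGCcgtctctagg

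Most mitoribosomal genes had an NRF-1 peak at their promoter in both conditions. A promoter peak, one that overlapped the 1 kb on either side of any coding transcript start, was found for 72 of 78 members in the siControl list (92.3%, exact Clopper-Pearson 95% interval 84.0 to 97.1) and again for 72 in the siAATF list. Among all coding genes the shares were 61.1% and 60.7%, in the same order. The interval covers counting error over genes only, and the coding genes include many that these cells may not transcribe, which was not measured here.

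Large and small subunit had similar shares. In each list, 45 of 49 MRPL genes (91.8%) and 27 of 29 MRPS genes (93.1%) had a promoter peak, a difference of -1.27 percentage points with a Newcombe 95% interval from -13.4 to 14.6. The interval allows a difference in either direction. Genes for the proteins of the cytosolic ribosome gave 69 of 79 (87.3%, 78.0 to 93.8) in each list.

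**Figure D1:**
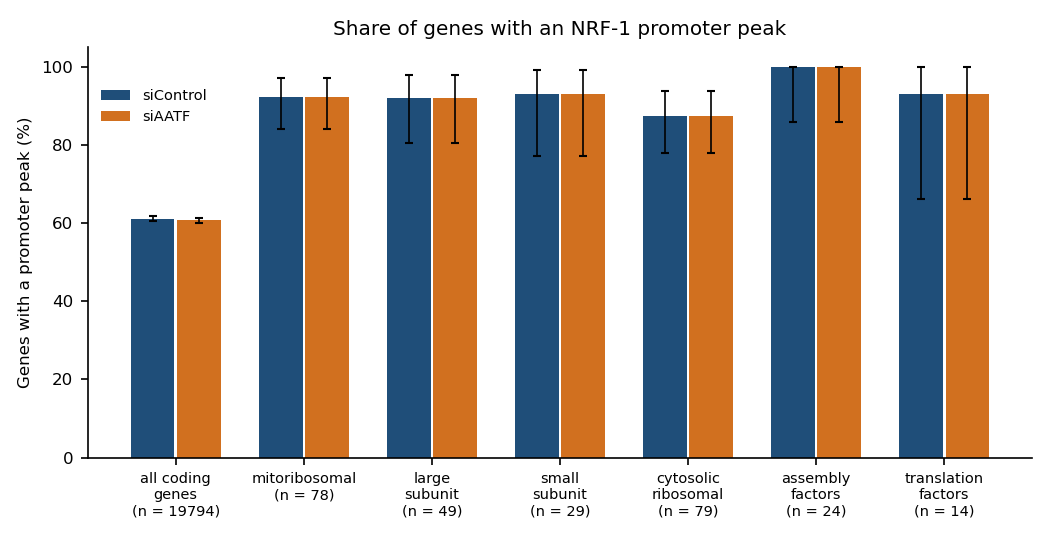
Share of genes with an NRF-1 promoter peak (percent) for all coding genes, the mitoribosomal genes and related lists, in the siControl and siAATF lists; bars are shares and error bars are exact Clopper-Pearson 95% intervals over genes. The mitoribosomal bars stand at 92.3% in both conditions, beside 61.1% and 60.7% for all coding genes.

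Of the members, 71 had a promoter peak in both lists, and in all 71 the strongest peaks of the lists overlapped. In the median pair, 97.7% of the siControl bases and 96.6% of the siAATF bases were common to both. The overlap of such pairs over all coding genes was not computed. Most of the peaks spanned the canonical start. Promoter peaks were chosen for overlap with the 1 kb around a coding start, which favours this. The share over all coding genes was not counted. In siControl the peak spanned the start of the canonical transcript for 70 of 72 members and its whole first exon for 60. In siAATF these were 67 and 59 of 72. The median distance between peak midpoint and canonical start was 86 bp under siControl and 81.2 bp under siAATF.

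The exceptions in position were few. MRPL19, a large-subunit protein with a bacterial homologue, and MRPS27, a pentatricopeptide repeat protein of the small subunit, had peaks off the canonical start in both lists, and MRPL18, MRPL53 and MRPS30 did so in siAATF only. The strong MRPS27 peak (chr5:71603795-71604606, −log10 q 56.3 in siControl and 57.1 in siAATF) lay 11.9 kb downstream of the canonical start, at another annotated coding start. A weak peak at its canonical start had a −log10 q of 2.48 in siControl and 2.75 in siAATF.

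Only 7 members lacked a promoter peak in a list. MRPL1 (part of the stalk beside the tRNA exit site), MRPL35 and MRPL47 of the large subunit and MRPS18B and MRPS22 of the small subunit had no promoter peak in either list. The nearest siControl peak lay 42.3 kb from the canonical start of MRPL1, 3.57 kb from that of MRPL35, 40.7 kb from that of MRPL47 and 45.2 kb from that of MRPS22. MRPL47 shares a head-to-head promoter with NDUFB5, a complex I subunit gene, which had no promoter peak either.

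MRPS18B lay in a region with almost no promoter peaks, and its nearest siControl peak was 2234 kb away. In this region, the extended MHC of chromosome 6, 1 of 178 coding genes (0.562%) had a promoter peak in each list. On the rest of the chromosome, 564 of 850 (66.4%) had one in siControl and 562 of 850 (66.1%) in siAATF. The lists also held peaks on 5 alternative haplotypes of this chromosome, 16 in siControl and 18 in siAATF. The part of read placement between those haplotypes and the chromosome was not tested. Whether NRF-1 was absent at MRPS18B cannot be told from the lists.

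MRPL27 and MRPL13 had a peak in 1 list, and both peaks were in the weaker part of their list. Among all coding genes, 321 of the 12095 with a siControl promoter peak had none in siAATF. The reverse held for 232 of the 12006 with a siAATF promoter peak. For the members it was 1 of 72 in each direction, which is no result about them. MRPL27, which reaches towards the peptidyl transferase centre, had a siControl peak with a −log10 q of 3.29 and a fold enrichment of 4.45 over the local background, at percentile rank 20.1 by −log10 q (0 is the weakest and 100 the strongest peak of a list). The nearest siAATF peak was 23.9 kb away. MRPL13 had a siAATF peak only, with a −log10 q of 2.12 and a fold enrichment of 3.82, at percentile rank 8.45 by −log10 q. Entries reached down to a −log10 q of 1.03 (siControl) and 1.02 (siAATF), so weaker peaks than these were kept in both lists.

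Among the members that had one, the promoter peak was about as strong as that of any coding gene. The strength of each peak is given as its −log10 q, its fold enrichment, and its percentile rank by either column within its own list. The median −log10 q of the members was 18.0 in siControl and 15.7 in siAATF, against 18.0 and 17.4 over all coding genes with a promoter peak. By fold enrichment the median rank was 67.5 in siControl and 62.7 in siAATF, against 63.4 and 64.4. A rank of 90 or more by −log10 q was reached by 11 of 72 members in siControl (all coding genes 15.8%) and by 13 of 72 in siAATF (16.5%). The members thus differed from all coding genes in how often they carried a promoter peak, while the shares of tall peaks were near the background.

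The large-subunit promoter peaks had the higher median. The median −log10 q of the 45 MRPL genes was 26.4 in siControl and 27.3 in siAATF. That of the 27 MRPS genes was 11.2 in siControl and 9.76 in siAATF. Their ranges overlapped almost entirely, from 1.35 to 84.2 for large and 1.86 to 79.3 for small in siControl, and the difference was not tested, since genes of 1 library are not replicates. With MRPS18A and MRPS30 counted as large, the siControl medians were 21.2 and 11.4.

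The order within the large subunit was led by MRPL14, which lies on the face towards the small subunit and had a −log10 q of 84.2 in siControl and 83.9 in siAATF. MRPL45, which anchors the ribosome to the inner membrane at the exit tunnel, had 82.4 and 75.9. MRPL54, a protein specific to mitochondria, had 77.5 and 70.1. MRPL24 and MRPL17, both at the exit tunnel, followed. MRPL24 had a −log10 q of 77.1 in siControl and 73.5 in siAATF, and MRPL17 had 76.8 and 66.0. All 5 carried an NRF-1 core.

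The lowest large-subunit peaks were those of MRPL28 (1.35 in siControl and 2.94 in siAATF, as −log10 q), MRPL16 (1.88 and 5.40) and MRPL52 (3.13 and 3.98), with MRPL27 and MRPL19 (3.47 and 2.12) next to them. None of these 5 had a core. MRPL16 and MRPL27 both belong to the surroundings of the peptidyl transferase centre.

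In the small subunit the tallest peaks were those of MRPS18C, a homologue of bacterial S18 (−log10 q 79.3 in siControl and 70.3 in siAATF), MRPS25 (74.9 and 58.1) and MRPS12, a protein of the decoding centre (68.9 and 69.7). MRPS33 had 68.9 in siControl and 62.6 in siAATF, and MRPS6 had 58.1 and 50.2. Of these, MRPS25 alone had no core. The 5 lowest were MRPS16, MRPS21, MRPS30, MRPS31 and MRPS18A, between 1.86 and 4.46 in siControl and between 1.79 and 8.43 in siAATF, all without a core. Within the S18 family, MRPS18C was among the tallest and MRPS18A among the lowest, and MRPS18B had no peak.

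**Figure D2:**
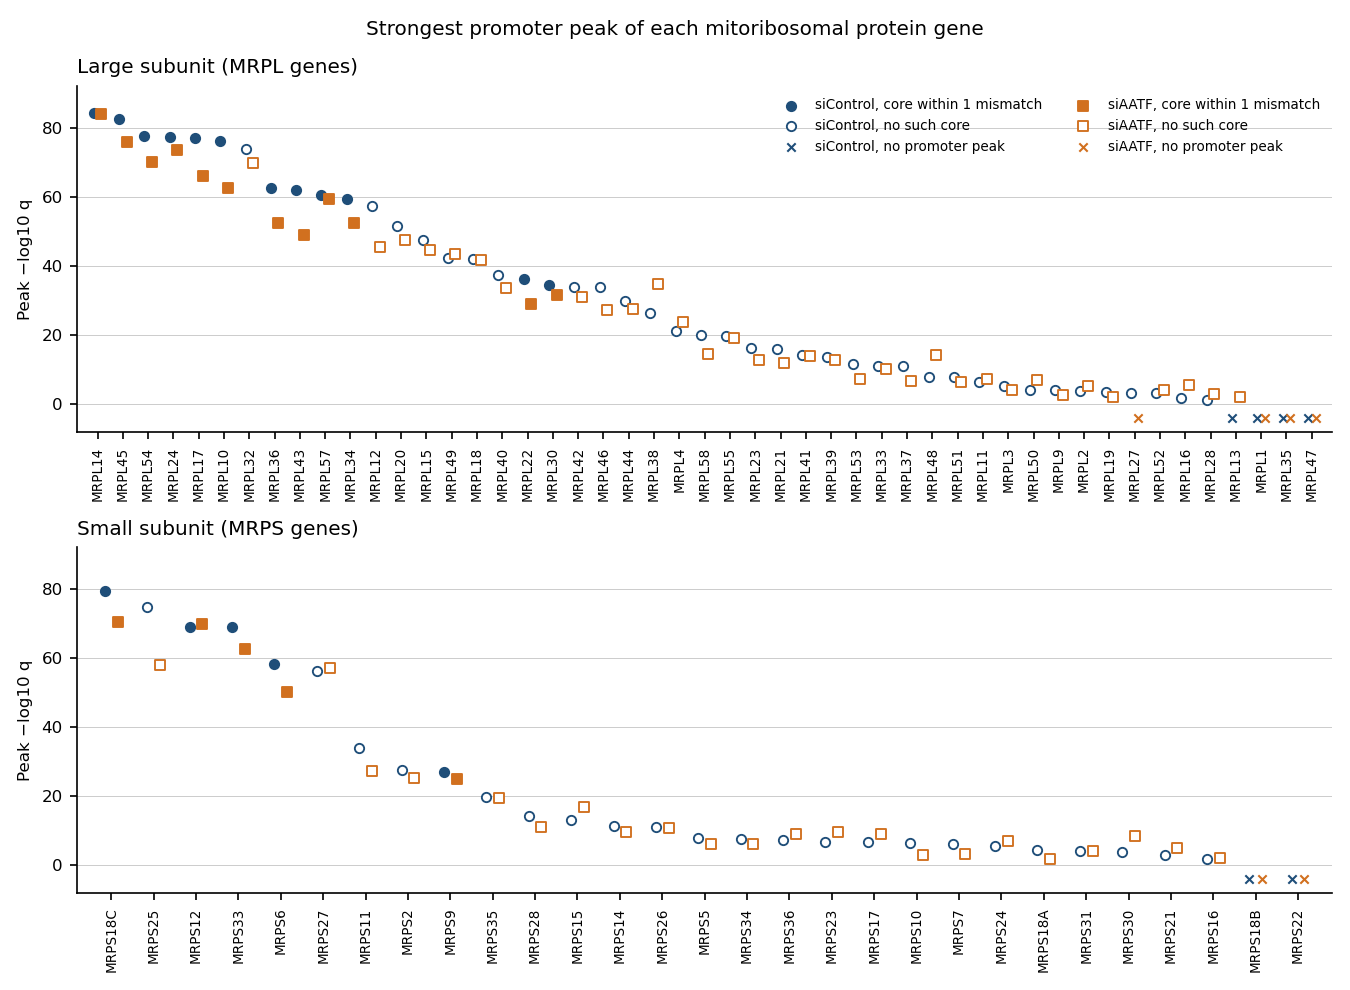
−log10 q (vertical axis) of the strongest promoter peak of every mitoribosomal gene, ordered by the siControl value, for the large subunit (upper panel) and small subunit (lower panel); circles are siControl, squares siAATF, filled symbols have the NRF-1 core within 1 mismatch and crosses mark genes with no promoter peak. Filled symbols gather at the left of both panels, from 84.2 for MRPL14 down to 27.0 for MRPS9 in siControl.

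By role in the ribosome, the exit tunnel genes had a high and those of the peptidyl transferase centre a low median, and the values of these groups overlapped. Of the 6 exit tunnel genes (MRPL17, MRPL22, MRPL23, MRPL24, MRPL45 and MRPL47), 5 had a promoter peak, with a median −log10 q of 76.8 in siControl and 66.0 in siAATF. MRPL23 was the lowest of these 5, with 16.3 and 12.9. The 5 genes around the peptidyl transferase centre (MRPL2, MRPL3, MRPL4, MRPL16 and MRPL27) had a median of 3.70 in siControl, and the 4 of them with a peak in siAATF had 5.29. MRPL4 was the highest of these, with 21.2 and 23.6, above MRPL23. The overlap of the groups rests on MRPL4 alone. Its protein also reaches the exit tunnel, so the overlap and both medians depend on where it is placed. These groups were small and chosen with earlier results known, and no test was made between them.

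The stalk that recruits the translation GTPases (MRPL10, MRPL11 and MRPL12) was uneven. MRPL10 had a −log10 q of 76.2 in siControl and 62.5 in siAATF, MRPL12 had 57.4 and 45.5, and MRPL11 had 6.52 and 7.26. The 5 central protuberance genes (MRPL18, MRPL38, MRPL40, MRPL46 and MRPL48) all had a peak, from 7.79 to 42.0 in siControl and from 14.1 to 41.6 in siAATF. MRPL58, a peptidyl-tRNA hydrolase built into the large subunit, had 19.9 and 14.5.

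Genes for proteins with a bacterial homologue and for proteins specific to mitochondria gave overlapping values. A promoter peak was present in each list for 41 of 46 genes with a bacterial homologue (89.1%) and for 31 of 32 specific to mitochondria (96.9%). Their median −log10 q in siControl was 19.7 for the former and 14.2 for the latter, with ranges that overlapped throughout.

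The core marked the tallest peaks, although members held it no more often than other genes. It was found within 1 mismatch in the strongest promoter peak of 17 of 72 members in each list (23.6%, 14.4 to 35.1), the same 17 genes in both, against 23.9% (siControl) and 24.0% (siAATF) of all coding genes with such a peak. By subunit, 12 of 45 MRPL peaks (26.7%) and 5 of 27 MRPS peaks (18.5%) had it. A control palindrome with the same bases and the same number of CpG steps, GGCGTACGCC, was within 1 mismatch in 3 of 72 (4.17%) in siControl, beside 3.61% of all coding genes.

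Members with the core had a median −log10 q of 68.9 in siControl and 62.5 in siAATF, and members without it 11.2 and 10.2. In siControl the lowest core member was MRPS9 at 27.0, and all 17 core members were above 25, as were 15 of the 55 members without the core. Of the 11 members at rank 90 or more, 9 had the core. All coding genes showed the same contrast, with medians of 66.4 with and 12.3 without the core in siControl, so it was not particular to the mitoribosomal genes.

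The 24 core sites in the siControl peaks lay close to the peak midpoint, a median of 37.8 bp away and within 100 bp for 20 of them. Counted by gene, 15 of 72 members (20.8%) had a core within 100 bp of the midpoint in siControl, beside 16.8% of all coding genes with a promoter peak. Of the genes with a core in that peak, 15 of 17 members and 2035 of 2892 coding genes had one so placed. Most genes with a core thus had it near the midpoint in either set, and the difference was not tested. By annotation of the canonical transcript, 18 of the 24 sites were upstream of the gene, 5 in an intron and 1 in the UTR of an exon, and 0 were in coding sequence. MRPL54 had 4 sites, all intronic, and MRPL17, MRPL34, MRPL45 and MRPS12 had more than 1. Read on the sense strand of the gene, the commonest difference from the palindrome was T6G, at 10 sites, followed by C10T at 4, A5C at 3 and T6C at 3. The palindrome is its own reverse complement, so T6G and A5C are the same site read from opposite strands. The members with a core whose sites are not shown were MRPL10, MRPL22, MRPL30, MRPL34, MRPL36, MRPL43 and MRPL57, and their −log10 q in siControl ran from 34.5 to 76.2.

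A few tall peaks had no core within 1 mismatch. MRPS25 and MRPL32, a zinc-binding protein that matures by cleavage in the mitochondrion, were above rank 90 by −log10 q in both lists. The closest matches in their siControl peaks had 2 mismatches and are shown with the match in capitals, MRPS25 at chr3:15106811-15106840 on the minus strand (C4T and A5C) and MRPL32 at chr7:42971777-42971806 on the plus strand (G1A and G3A), both upstream of the gene. MRPL32 had 3 such matches, of which the one nearest the peak midpoint is shown, and MRPS25 had 1. A closest match of 2 mismatches was found for 26 of 72 members (36.1%), against 43.3% of all coding genes with a promoter peak, so such a match is common.
MRPS25: cgtctcctgtGCGTCTGCGCgggaagtgga
MRPL32: gcacagccgcACACATGCGCactgtggccg

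For most promoter peaks the rank by fold enrichment changed by at most 10 points between the conditions, without a shared direction. Over the 71 members with a peak in both lists, the rank by fold enrichment in siAATF minus that in siControl had a median of -1.42 points (binomial 95% interval of the median -3.91 to 2.75), with 39 lower and 32 higher in siAATF. Ranked by −log10 q, the median was 0.17 points, with 30 lower and 41 higher. For all 11774 coding genes with a peak in both lists the median was 0.16 points by fold enrichment. Of the 71 members, 46 stayed within 10 points and 65 within 20 by fold enrichment. Their median absolute change was 6.66 points, against 5.12 for all coding genes with a peak in both lists. The share of all coding genes within 10 points was not counted.

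A move of more than 20 points was seen for 6 of 71 members (8.45%, 3.16 to 17.5), beside 6.55% of all coding genes. Of these, 2 fell (all coding genes 2.90%) and 4 rose (3.65%). These shares are near the background and are no result about the members. With 1 list per condition a change of this size has no replicate spread to be read against.

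Among the 4 that rose, MRPL16 went from a fold enrichment of 3.70 in siControl to 5.63 in siAATF and from rank 11.1 to 50.8. MRPS30 went from 4.79 to 6.46 and from rank 33.4 to 63.9. MRPL48 went from 6.40 to 8.27 and from rank 58.6 to 89.1. MRPL16 and MRPS30 were weak peaks in siControl, whereas MRPL38, the remaining gene, was not. Its fold enrichment was 7.58 in siControl and 8.87 in siAATF, at ranks 74.3 and 94.7. MRPL38 and MRPL48 both belong to the central protuberance, but ranked by −log10 q they rose by 6.99 and 17.1 points and so did not pass 20. By that ranking 4 members moved, MRPL16 and MRPS30 up and MRPS18A and MRPS10 down. MRPS21 had the next largest rise, 18.4 points.

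The 2 that fell were MRPS18A and MRPS10, a protein of the small-subunit head. MRPS18A had a fold enrichment of 5.21 in siControl and 3.61 in siAATF, at ranks 40.7 and 9.85. MRPS10 had 6.07 and 4.28, at ranks 53.7 and 25.5. Both peaks were weak in each list, with a −log10 q of 4.46 and 1.79 for MRPS18A and of 6.51 and 3.01 for MRPS10. MRPL37, MRPS7 and MRPS25 had the next largest falls, with changes of -19.9, -19.7 and -18.3 points. MRPS18A and MRPS30, the large-subunit proteins with small-subunit symbols, moved in opposite directions.

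None of the 17 members with the core moved by more than 20 points, and their median absolute change was 3.45 points. Of the 54 without it, 6 moved (11.1%), with a median absolute change of 8.18 points. All coding genes divided in the same way, 1.32% of 2880 with the core and 8.24% of 8894 without it having moved.

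**Figure D3:**
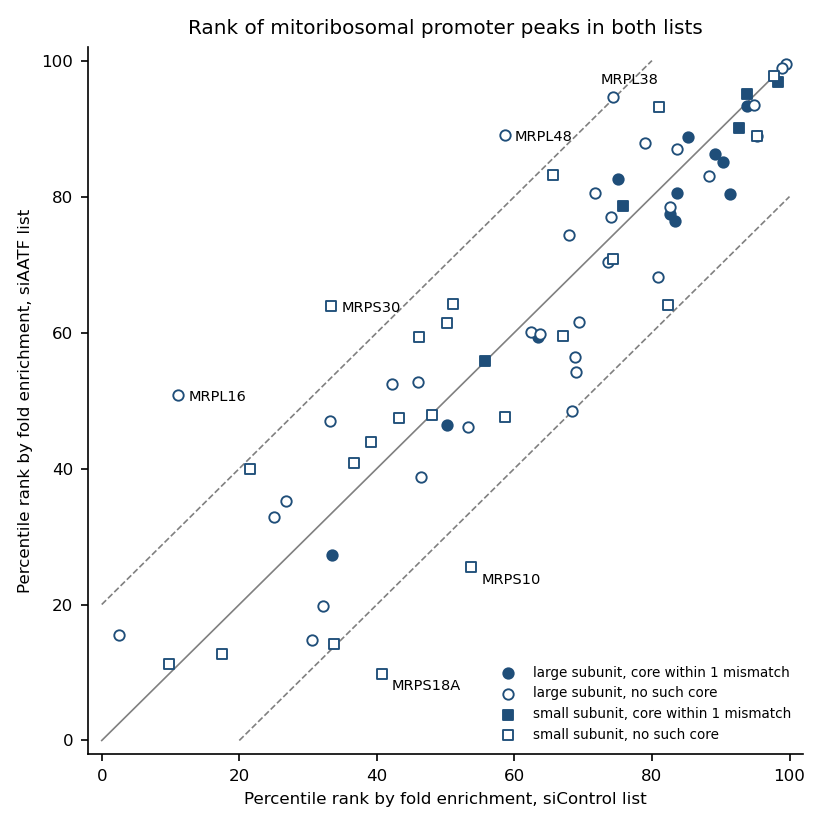
Percentile rank by fold enrichment of the strongest promoter peak in the siControl list (horizontal axis) and the siAATF list (vertical axis) for the 71 mitoribosomal genes with a peak in both; circles are large-subunit and squares small-subunit genes, filled symbols have the NRF-1 core in siControl, the solid line marks equal rank and the dashed lines 20 points either way. The 6 named genes lie beyond the dashed lines, 4 above and 2 below, and all filled symbols lie between them.

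Mitoribosomal genes often shared their promoter with another gene. A coding gene on the other strand started within 1 kb of the canonical start for 29 of 78 members (37.2%), compared with 12.8% of all coding genes and 20.3% of cytosolic ribosomal protein genes. Assembly factors of the mitoribosome gave 50% (12 of 24) and mitochondrial translation factors 42.9% (6 of 14), so this was not particular to the members. The share was 42.9% (21 of 49) for the large and 27.6% (8 of 29) for the small subunit. In such cases a peak cannot be assigned to 1 of the 2 genes. Of the members with a partner, 26 of 29 had a promoter peak in siControl (89.7%), where all coding genes with a partner gave 89.5%. Of the members without a partner, 46 of 49 had one (93.9%), where all coding genes without a partner gave 56.9%. The higher share of members with a peak was thus seen among those without a partner. Their peaks were the lower ones, with a median −log10 q of 13.9 in siControl, beside 34.2 for members with a partner (all coding genes 17.4 and 21.1).

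MRPL46 and MRPS11 were divergent partners of each other and had the same peak, chr15:89010525-89011273, which joins a central protuberance gene of the large subunit with a platform gene of the small subunit. It had a −log10 q of 33.9 under siControl and 27.3 under siAATF, at ranks 95.3 and 88.9 by fold enrichment. The 319 bases between the canonical starts held no core within 1 mismatch. MRPS12 shared its peak with SARS2, the mitochondrial seryl-tRNA synthetase gene, and MRPL43 with TWNK, the mitochondrial DNA helicase gene. The partners of other members included FAU (MRPL49), PSMA2 (MRPL32), TCP1 (MRPL18) and HIRA (MRPL40), whose products work outside the mitochondrion.

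MRPL34, MRPL36, MRPL54 and MRPS27 had 2 promoter peaks in each list. For MRPL36 the weaker peak, with a −log10 q of 47.6 in siControl and 41.6 in siAATF, was also the promoter peak of NDUFS6, a complex I subunit gene. For MRPL54 the weaker peak had 49.9 and 37.2, and for MRPL34 it had 2.35 and 6.70.

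Among short words other than the NRF-1 core, that of the factor YY1 stood out at the member promoters. Exact copies of 4 short words were counted on both strands within 250 bp of the canonical start, over the 19515 coding genes with a tagged canonical transcript. The YY1 word, AAGATGGC, was present at 23 of 78 member promoters (29.5%, 19.7 to 40.9), against 5.33% of all coding genes and 15.2% of cytosolic ribosomal protein genes. Large and small subunit had it alike, in 14 of 49 (28.6%) and 9 of 29 (31.0%).

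The YY1 words were placed alike too. Of 24 copies, 20 read in the sense direction and 22 lay within 100 bp of the canonical start, at a median of 13 bp downstream. In 14 of the 23 genes the ATG inside the word was the annotated start codon, so that a factor site and a coding start cannot be told apart in these copies. Direction, position and overlap with the start codon were not counted over all coding genes, so they cannot be called particular to the members. Among the sense copies inside a member's strongest siControl peak, the 4 with the highest −log10 q are shown with the word in capitals, each beginning in the 5′ UTR. They were MRPL45 at chr17:36453136-36453165, MRPL49 at chr11:64889805-64889834 and MRPL22 at chr5:154320657-154320686 on the plus strand, and MRPL20 at chr1:1342640-1342669 on the minus strand. In MRPL20 the ATG of the word was not the annotated start codon.
MRPL45: tttgcgggaacAAGATGGCagcccccatac
MRPL20: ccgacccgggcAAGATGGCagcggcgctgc
MRPL49: cgtagcaggtaAAGATGGCagctaccatgt
MRPL22: cgggagggcgaAAGATGGCggcggcagtac

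The NRF-1 core was about as frequent in members with the word as in those without it. Of the 20 members with the YY1 word and a siControl promoter peak, 4 had the core, and of the 52 without the word, 13 had it. With the word, the median −log10 q stood at 30.2 (siControl) and 28.1 (siAATF), and without it at 16.2 and 14.3, a difference that was not tested. YY1 binding was not measured.

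The word of the ETS family and GABP, CCGGAAGT, was present at 14 of 78 member promoters (17.9%, 10.2 to 28.3), against 6.61% of all coding genes. Assembly factors of the mitoribosome (25%) and mitochondrial translation factors (28.6%) had it at least as often. Among genes with a promoter peak the contrast was smaller. The strongest peak held the word for 16.7% of members in siControl (8.92 to 27.3) and 13.9% in siAATF (6.87 to 24.1), beside 10.9% of all coding genes in either list. By subunit the word was found at 12 of 49 large-subunit promoters (24.5%, 13.3 to 38.9) and at 2 of 29 small-subunit promoters (6.90%, 0.846 to 22.8), with intervals that overlapped. The NFY word CCAAT was at 33.3% of member promoters and 43.5% of all, and the SP1 word GGGCGG at 71.8% and 70.1%. The NRF-1 core within 1 mismatch was at 17.9% of member promoters in this window and at 11.6% of all.

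**Figure D4:**
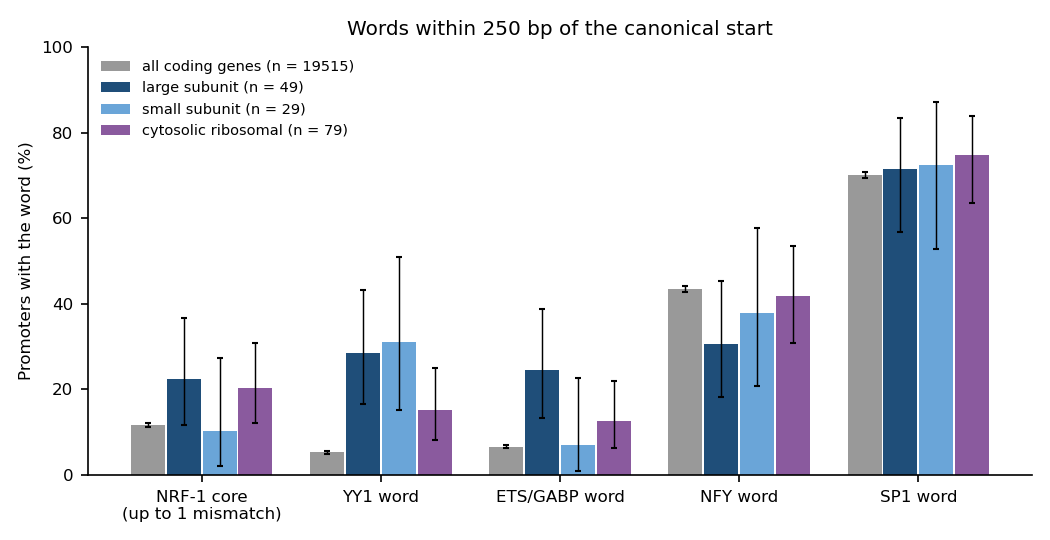
Share of promoters (percent) with each word within 250 bp of the canonical start, for all coding genes, the large and small mitoribosomal subunits and the cytosolic ribosomal protein genes; bars are shares and error bars exact Clopper-Pearson 95% intervals over genes. The YY1 bars of both mitoribosomal subunits, 28.6% and 31.0%, stand above the 5.33% of all coding genes, and the ETS/GABP bar does so for the large subunit, at 24.5%.

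Other genes of mitochondrial translation were taken from lists of known proteins of each kind. Of 5 mitoribosomal proteins that go by other symbols, 4 had a promoter peak in each list. DAP3, a small-subunit GTP-binding protein, had a −log10 q of 88.6 in siControl and 81.3 in siAATF, above every MRPL and MRPS gene in siControl, and PTCD3 had 51.6 and 59.3, both with a core. AURKAIP1 (5.23 and 5.65) and GADD45GIP1 (6.17 and 4.05) had weak peaks, and CHCHD1 had none.

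All 24 assembly factors of the mitoribosome carried a promoter peak under both conditions, with a median −log10 q of 30.8 in siControl and 26.5 in siAATF. In siControl they ran from TRUB2, a pseudouridine synthase, at 2.37 to MTG1, a GTPase, at 98.4. In siAATF they ran from NSUN4, an rRNA methyltransferase partner of MTERF4, at 1.93 to MTG1 at 83.3. The core was found in 8 of them. Of 14 translation factors, 13 had a promoter peak, with a median of 13.8 in siControl and 16.7 in siAATF, and the release factor gene MTRF1 had none. TUFM, the elongation factor Tu, had 13.8 and 16.7, and MTFMT, which formylates the initiator tRNA, had 72.1 and 63.4. As for the ribosomal proteins, a promoter peak was common in these lists while its height ranged widely.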

How the data were processed

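NRF-1 ChIPmentation libraries of U251 cells, siControl and siAATF, were sequenced with paired ends. According to the methods of the study, reads were aligned to hg19 with Bowtie2 and peaks were called by MACS2 inside an ATAC-seq pipeline with its defaults, which may shift reads from the transposase cut site and move peak edges slightly in both lists. Versions of these tools were not given in the sources used here, and the methods mention neither an input nor an IgG library. Duplicates are mentioned, but the labels give 1 sample per condition, and whether reads were pooled was not stated. The design text names U138 cells, whereas the sample labels name U251 and were followed.

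The authors deposited MACS2 broad peaks with start and end positions in bp, the fold enrichment over the local background of the same library (a ratio), the −log10 p and the −log10 q of each peak, and a display score made from the q-value, which was not used. Fold enrichment depends on the background and depth of its own library, so peaks were compared between the deposited lists by percentile rank. Depth was unknown because the lists hold no read counts. The lists keep weak peaks, down to a −log10 q of 1.03 in siControl and 1.02 in siAATF.

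A gene's strongest promoter peak was the one with the highest fold enrichment among peaks overlapping by at least 1 base the 1 kb on either side of any coding start, over 19794 coding genes of chromosomes 1 to 22, X and Y. Coordinates are 1-based on hg19, and sequences are from the GRCh37 reference. Counts, medians and exact 95% intervals were computed with Python 3.11.15, numpy 2.4.6, scipy 1.17.1, pandas 2.3.3 and pysam 0.24.0, and the assignment was tested on simulated data. The intervals cover counting error only. The genes, lists and words were chosen with earlier results of these data known. Genes were named if they lacked a peak in a list, had the exact core or 2 promoter peaks, were among the 5 highest or 5 lowest of a subunit by −log10 q in siControl, were among the 5 largest rises or falls in rank or moved by more than 20 points, shared a peak with another member, or belonged to a role group. Partner genes, members with a core, members off the canonical start and genes beside the words were named after their values were seen.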

Additional observations from a re-analysis of the deposited data

How the results depend on the processing

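No paired analysis was possible because each condition had 1 peak list. The 14 main values were recomputed under the alternatives, giving 88 values, of which 74 moved by less than the counting interval, and the only changes of sign were in values whose interval included 0. The other 14 followed from fewer peaks or fewer matches being allowed. With a −log10 q of at least 5, a promoter peak was left for 75.6% of members in siControl and 76.9% in siAATF (large 75.5% and 79.6%, small 75.9% and 72.4%), where all coding genes gave 51.5% in either list. With the 10000 strongest peaks by fold enrichment it was left for 67.9% and 71.8% (large 71.4% and 75.5%, small 62.1% and 65.5%), against 44.2% and 43.6%. With the exact core alone, 1.39% of members with a promoter peak had it in each list, where all coding genes gave 3.89% and 3.96%. The difference between large and small subunit was 7.18 points in siAATF with a −log10 q of at least 5, and 9.36 and 9.99 points with the 10000 strongest peaks, opposite in sign to the main value and with intervals that included 0. The median rank change, whose interval also included 0, had the opposite sign when ranked by −log10 q, at 0.17 points. Leaving out the MHC region and searching for the word TGCGCA were alternatives chosen after the data were seen. With no replicates and unknown depth, differences between the lists at weak peaks could not be separated from counting.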

Other observations

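The columns of the lists ordered the members differently. MRPL15 had the highest fold enrichment of all members in siControl, 10.9, and its −log10 q was 47.4. MRPL44, a protein related to ribonuclease III, came next with 10.5 and a −log10 q of 29.8. MRPL36 had a fold enrichment of 4.79, at rank 33.4, but a −log10 q of 62.4, at rank 89.9. MRPL54 likewise stood at rank 50.3 by fold enrichment and 95.7 by −log10 q. The cause was not tested. MRPS36, now known as a component of the 2-oxoglutarate dehydrogenase complex and not of the ribosome, was kept by its symbol and had a −log10 q of 7.44 in siControl and 9.07 in siAATF.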
